A study of Homo sapiens with 6 samples.

Results

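Pre-mRNA splicing factors can be picked out of a gene table by their names, and 84 of the 19330 genes in the ribosome footprint table carried such a name. They were every gene whose symbol was SRSF followed by a number (12 genes), or began with HNRNP (26), SF3A or SF3B and a number (9), SNRP (12), LSM and a number (12) or PRPF and a number (13). The rule reads symbols alone, but the members were chosen with earlier results of these data known. The cells were K562, a human chronic myelogenous leukemia line. The sgN6AMT1 group received pLentiCRISPRv2, a lentiviral vector for Cas9 and a guide RNA, with a guide against the methyltransferase gene N6AMT1. The sgCtrl group received the same vector with guides against olfactory receptor genes, OR11A1 and OR2M49 as the labels spell them (OR2M4 in the study's methods), and the labels do not say which of these guides a given library had. Cells of both groups thus carried Cas9, were selected with puromycin for 48 h, and were analysed 10 days post infection, with no cloning step described. Each group had 3 libraries, which the paper describes as separate infections. In Ribo-Seq, lysates are digested with RNase I and the mRNA fragments sheltered by ribosomes are sequenced, so a count reports ribosome occupancy of a coding sequence (CDS). mRNA abundance and ribosomes per mRNA cannot be told apart in such counts, nor can fewer cells with an mRNA and less of it per cell. RNA sequencing was not analysed here.

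The spliceosome removes introns and is built anew on each intron from small nuclear ribonucleoproteins (snRNPs). A ring of Sm proteins holds the U1, U2, U4 and U5 RNAs, and a ring of LSM proteins holds U6. The SNRP genes encode the Sm proteins and proteins particular to U1 or U2. SF3A and SF3B proteins place the U2 snRNP on the branch site, and the PRPF proteins of the U4/U6.U5 tri-snRNP and the Prp19 complex help to form the catalytic core. SR proteins and hnRNPs bind exons and introns and direct which splice sites are used. N6AMT1 methylates eRF1, the release factor that reads stop codons, and the comparison asks what its depletion does to ribosome occupancy.

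Library totals lay between 1821356 and 2969736 counts. For the targeted gene the control libraries held 25, 24 and 34 counts and the depleted libraries 10, 9 and 8, and it fell by 1.51 in log2 units (SE 0.31, quasi-likelihood test of edgeR, adjusted p = 6.69e-05). All 10 markers of K562 cells, among them GATA1, KLF1 and the fetal globins, were at 10 CPM or more, with a summed level of 27330 to 28830 CPM in sgCtrl and 27760 to 28700 CPM in sgN6AMT1. Of 8 epithelial or kidney markers, 1 reached 10 CPM and 2 were at 0 in every library, with sums of 165.3 to 191.8 CPM in sgCtrl and 181.9 to 201.2 CPM in sgN6AMT1. Of 4 lymphoid markers, 1 reached 10 CPM and 1 was at 0, with sums of 32.2 to 40.3 CPM and 28.5 to 32.6 CPM. CPM are counts scaled to a common library size after trimmed-mean (TMM) normalization.

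Because eRF1 acts at stop codons, the ends of 13 reading frames are shown for members that the results turn on, from GENCODE release 44 on GRCh38. Each line reads 5′ to 3′ with the last 15 sense bases, the stop codon in capitals and the 6 bases after it.
SRSF2: ggagcggtgtcctctTAAgaaaat
SRSF8: ggacagatgtcctctTAAgaaaat
SRSF1: tctgaagagatggatTAAgaatgc
HNRNPH3: tggcgtgggatgtacTGAaagcaa
HNRNPU: caccaaggatattatTGAataccc
HNRNPA3: ggtagcagaaggttcTAAaaacag
HNRNPF: atgggtggctatgacTAGttttgt
SNRPE: caaagtgtctccaacTAGaaatga
SNRPG: acctccaaggagtggTAAtacgag
SNRPD2: ctcatcgccggcaagTAGgggccg
LSM7: cagcagcaggacgccTAGcctggc
LSM10: ccaaaaaactgtaagTGAggccct
PRPF4B: atccaggaaaaaattTAAacaaga
All 3 stop codons occur among the members whose occupancy fell, and members that did not pass the test ended in each of them too. The shares that fell differed between the stop codons, as given below, and the difference was not tested. HNRNPH3 lies on chr10:68332064-68343193 (plus strand), HNRNPU on chr1:244853752-244864494 (minus strand), HNRNPA3 on chr2:177212772-177219865 (plus strand) and SRSF2 on chr17:76734252-76737331 (minus strand).

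Of the 84 genes, 81 had enough counts to be tested, and 29 passed an adjusted p of 0.05 (35.8%, against 26.9% of the 9202 genes tested). Occupancy fell for 27 of them (33.3%, against 13.9% of all genes) and rose for 2 (2.47%, against 12.9%). The median log2 fold change, sgN6AMT1 over sgCtrl, was -0.14 over the 81 members and 0.0063 over all genes, and it was negative for 65 members (80.2%, against 49.0% of all genes). All 3 sgN6AMT1 libraries lay below all 3 sgCtrl libraries for 35 members (43.2%, against 19.2% of all genes) and above them for 6 (18.4% of all genes did so). Most changes were small. The median absolute log2 fold change of the 29 members past the threshold was 0.30, against 0.44 for all genes past it, and HNRNPH3, the member that fell most, went down by 34.6%. Calls depend on depth, so these medians depend on counts as well as on the size of the change.

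Together, the members took 2.97%, 3.08% and 2.95% of all counts in control cells and 2.71%, 2.68% and 2.68% in depleted cells, so the groups did not overlap. Their summed level went from 30690 ± 721.5 to 26540 ± 159.6 CPM (SD, n = 3 per group), a change of -13.5%. On the same TMM scale the sum over all genes in the table changed by -3.61%, also without overlap. Sums in CPM are to be read against that change. The SF3A/SF3B and LSM sums changed by less than it (-2.20% and -2.21%). The name groups differed in their counts. SRSF, HNRNP and SNRP genes accounted for 23 of the 27 decreases among 48 tested members (47.9%) and for no increase. SF3A, SF3B, LSM and PRPF genes accounted for 4 decreases (12.1%) and both increases (6.06%) among 33 tested members. Of all genes tested, 13.9% fell and 12.9% rose, so the share of decreases in these 33 was near that of all genes. The difference between name groups was not tested, because the groups were compared with earlier results of these data known.

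**Figure D1:**
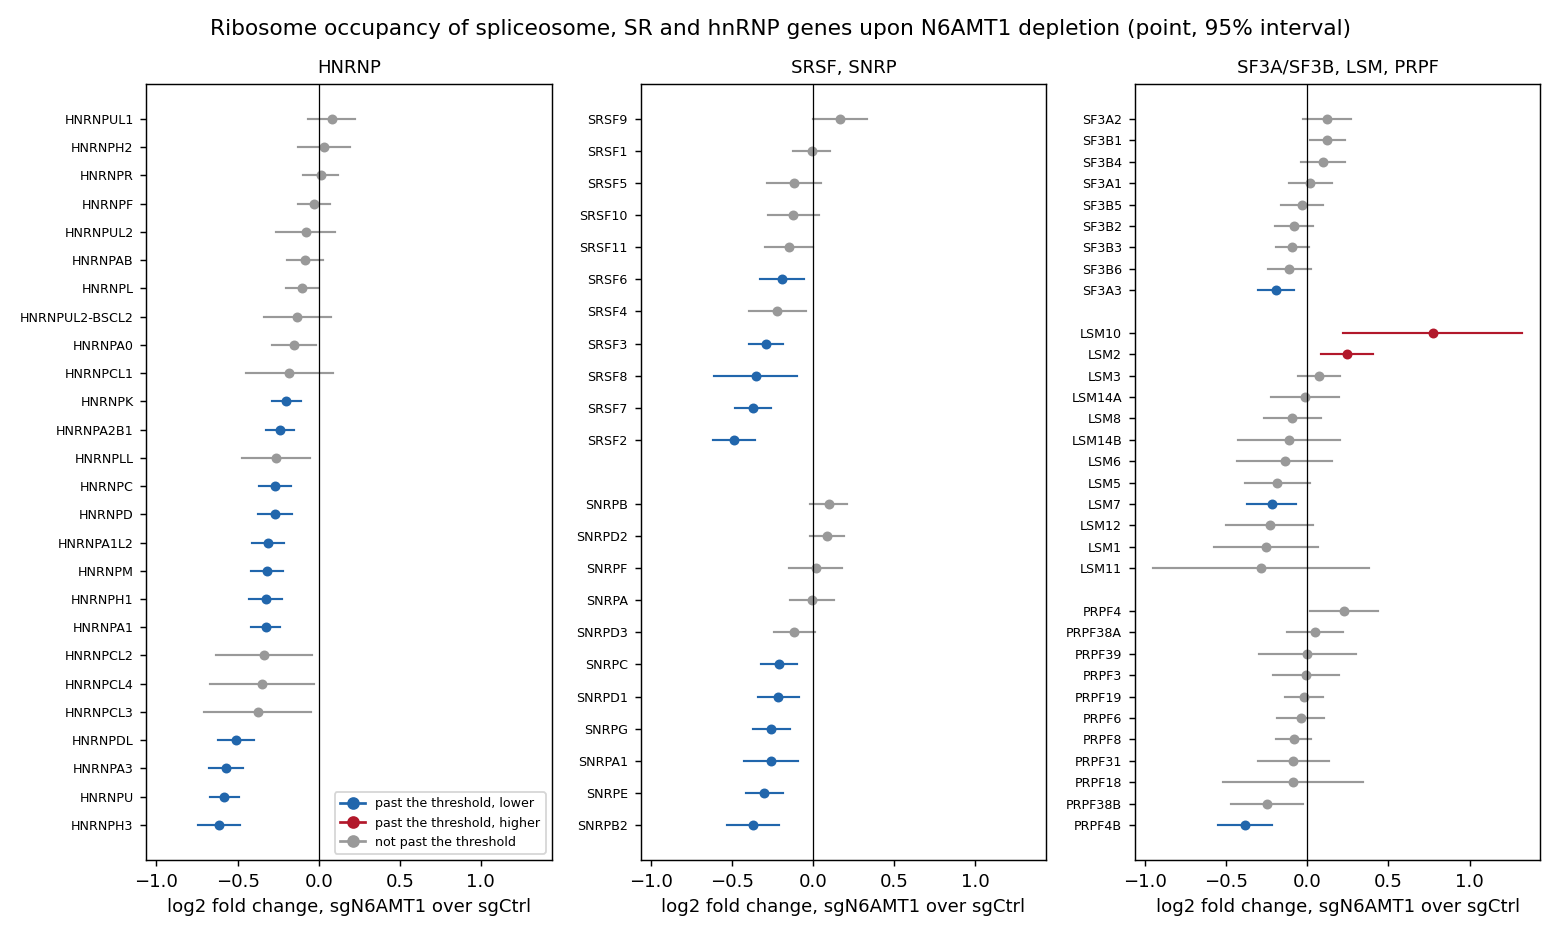
Log2 fold change of ribosome occupancy (x axis, sgN6AMT1 over sgCtrl) for 80 of the 81 tested members, ordered by value within each name group. Points are edgeR estimates, lines are 95% intervals and colors give the call at an adjusted p of 0.05. The decreases lie mostly in the HNRNP, SRSF and SNRP panels, and both increases are LSM genes.

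SR proteins carry RNA recognition domains and a tail rich in arginine and serine, and they bind exonic enhancers. Of 11 tested SRSF genes, 5 fell (45.5%, against 13.9% of all genes) and none rose, with a median log2 fold change of -0.19. Their summed level was 2942 ± 35.1 CPM in sgCtrl and 2516 ± 34.5 CPM in sgN6AMT1 (SD, n = 3 per group), a change of -14.5%. SRSF2, which bridges the splice sites through exonic enhancers, was at 405.9, 347.5 and 389.0 CPM in sgCtrl and at 257.3, 252.7 and 305.1 CPM in sgN6AMT1. Every depleted library lay below every control library, and replicate 3 was the highest of the depleted ones. The log2 fold change was -0.49 (SE 0.064, edgeR, adjusted p = 1.48e-09). SRSF7, which also exports mRNA, was at 476.2, 477.5 and 451.6 CPM against 362.0, 360.3 and 365.3 CPM, with -0.37 (SE 0.056, edgeR, adjusted p = 7.04e-08). Its 3 depleted libraries were close to each other, and the groups were far apart.

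SRSF3, the smallest SR protein and the SRSF gene with the highest footprint density (1430 CPM per kb of CDS in sgCtrl), was at 692.2, 709.2 and 708.9 CPM in sgCtrl and at 563.2, 561.6 and 604.7 CPM in sgN6AMT1. Its log2 fold change was -0.29 (SE 0.051, edgeR, adjusted p = 3.59e-06), with no overlap. SRSF6 and SRSF8, a retrocopy related to SRSF2, passed by less. SRSF6 went from 217.4 ± 15.6 to 190.6 ± 8.57 CPM (SD, n = 3 per group; log2 fold change -0.19, edgeR adjusted p = 0.030), with highest depleted and lowest control library at 199.0 and 199.4 CPM. SRSF8 went from 48.4 ± 4.89 to 37.4 ± 0.902 CPM (SD, n = 3 per group; -0.35, edgeR adjusted p = 0.030). Over 17 alternative fits their adjusted p lay between 0.000795 and 0.161 and between 0.00754 and 0.202. SRSF6 lost its call without sgCtrl replicate 2 or 3 or sgN6AMT1 replicate 2 or 3, and SRSF8 without any 1 library other than sgCtrl replicate 2. Both also lost it with DESeq2, with total counts and after thinning.

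SRSF1, among the first SR proteins described, was at 418.9, 393.7 and 387.5 CPM in sgCtrl and at 381.8, 396.6 and 415.8 CPM in sgN6AMT1. The groups overlapped fully, and the log2 fold change was -0.0079 (95% interval -0.12 to 0.11). Of the 30-base stretches of its CDS, 71.5% also occur in the listed transcript RP11-159D12.5, so its count depends on how shared reads were placed. The ratio of SRSF1 to SRSF2 counts within a library was 1.05 ± 0.071 in sgCtrl and 1.47 ± 0.10 in sgN6AMT1 (SD, n = 3 per group). SRSF4 missed the threshold (-0.22, edgeR adjusted p = 0.053) although its groups did not overlap, and SRSF9 had the highest estimate (0.16, edgeR adjusted p = 0.14). SRSF12 had 1 count in all 6 libraries and was not tested.

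HnRNPs coat nascent transcripts, and many of them silence splice sites. This was the group with the most decreases. Of 26 tested HNRNP genes, 12 fell (46.2%, against 13.9% of all genes) and none rose, with a median log2 fold change of -0.27. The summed level was 17950 ± 591.6 CPM in sgCtrl and 14740 ± 139.6 CPM in sgN6AMT1 (SD, n = 3 per group), or -17.9%. The group holds copies that share sequence with a parent gene (HNRNPA1L2, HNRNPCL1 to HNRNPCL4 and the read-through gene HNRNPUL2-BSCL2). Without these 6, 11 of 20 fell (55.0%) and the median was -0.25.

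HNRNPH3, which binds runs of guanines, had the lowest log2 fold change of all members. It was at 287.8, 285.1 and 295.3 CPM in sgCtrl and at 198.1, 187.9 and 180.2 CPM in sgN6AMT1. The control libraries were close together and far above the depleted ones, and the log2 fold change was -0.61 (SE 0.066, edgeR, adjusted p = 4.48e-13). HNRNPU, a nuclear scaffold protein that binds RNA and chromatin, had the smallest p of the group and was at 1905, 2014 and 1762 CPM against 1255, 1257 and 1292 CPM. Its log2 fold change was -0.58 (SE 0.046, edgeR, adjusted p = 1.34e-19), and the 3 depleted libraries were close together while the controls were spread. HNRNPA3, a relative of HNRNPA1, was at 988.5, 1129 and 959.4 CPM against 750.0, 663.2 and 659.0 CPM (-0.57, SE 0.053, edgeR adjusted p = 3.07e-15). HNRNPDL, a relative of HNRNPD, was at 480.7, 514.0 and 524.1 CPM against 375.2, 340.9 and 350.1 CPM (-0.51, SE 0.057, edgeR adjusted p = 1.77e-12). No library of either gene crossed over to the other group.

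HNRNPA2B1, with the highest footprint density of all members (2389 ± 93.9 CPM per kb of CDS in sgCtrl, SD, n = 3), was at 2459, 2644 and 2487 CPM in sgCtrl and at 2233, 2097 and 2098 CPM in sgN6AMT1. Its log2 fold change was -0.24 (SE 0.043, edgeR, adjusted p = 4.34e-06). HNRNPA1, the exon-silencing hnRNP studied most, was at 2091, 2380 and 2219 CPM against 1846, 1756 and 1734 CPM (-0.33, SE 0.045, edgeR adjusted p = 3.51e-09). Neither gene's groups overlapped. HNRNPK, which binds cytosine-rich RNA, went from 1727 ± 48.4 to 1505 ± 9.36 CPM (SD, n = 3 per group; -0.20, edgeR adjusted p = 0.000217). HNRNPC, which competes with U2AF for uridine tracts, went from 828.3 ± 8.49 to 688.6 ± 31.5 CPM (-0.27, edgeR adjusted p = 1.05e-05). HNRNPH1, HNRNPM and HNRNPD also fell, with log2 fold changes of -0.33, -0.32 and -0.27. These 12 hnRNP calls held in every alternative in which the gene could be fitted.

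Some close relatives did not move with them. HNRNPF, which like HNRNPH3 and HNRNPH1 binds runs of guanines, was at 821.3, 828.8 and 816.9 CPM in sgCtrl and at 796.9, 798.4 and 826.8 CPM in sgN6AMT1. Depleted replicates 1 and 2 lay below the controls and replicate 3 within their range, and the log2 fold change was -0.028 (95% interval -0.12 to 0.069). HNRNPH2 was at 0.035 and HNRNPR at 0.014, with intervals of -0.13 to 0.20 and -0.094 to 0.12. Within a library, the ratio of HNRNPF to HNRNPH3 counts was 2.84 ± 0.071 in sgCtrl and 4.29 ± 0.28 in sgN6AMT1 (SD, n = 3 per group). The ratio of HNRNPR to SYNCRIP, its close paralog, was 0.826 ± 0.036 and 1.11 ± 0.0098. Such ratios do not depend on library scaling. The 11 pairs formed were chosen after their values had been seen, so all 11 being free of overlap is a description.

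HNRNPA1 and its intronless copy HNRNPA1L2 cannot be counted independently, and a stretch of both coding sequences is shown for that reason. Over bases 589 to 648 of each CDS the copies differ at 3 positions, in capitals.
HNRNPA1: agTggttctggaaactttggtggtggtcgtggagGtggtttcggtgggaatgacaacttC
HNRNPA1L2: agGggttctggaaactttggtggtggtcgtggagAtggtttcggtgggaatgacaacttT
Over the first 714 bases the copies differed at 12 (98.3% identity), with an identical run of 174 bases. Of the 30-base stretches of HNRNPA1, 49.3% occur in HNRNPA1L2, and 57.5% of those of HNRNPA1L2 occur in HNRNPA1. HNRNPA1L2 was at 872.5, 910.2 and 887.9 CPM in sgCtrl and at 716.2, 689.1 and 747.5 CPM in sgN6AMT1 (-0.31, SE 0.049, edgeR adjusted p = 2.22e-07). Its change was close to that of HNRNPA1, and with so much shared sequence its call is uncertain. HNRNPUL2 and HNRNPUL2-BSCL2 share 96.3% and 96.5% of their 30-base stretches, and neither passed the threshold. HNRNPCL1 to HNRNPCL4, copies of HNRNPC, lay between 21.6 and 42.5 CPM on average and had log2 fold changes of -0.18 to -0.37, none past the threshold.

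**Figure D2:**
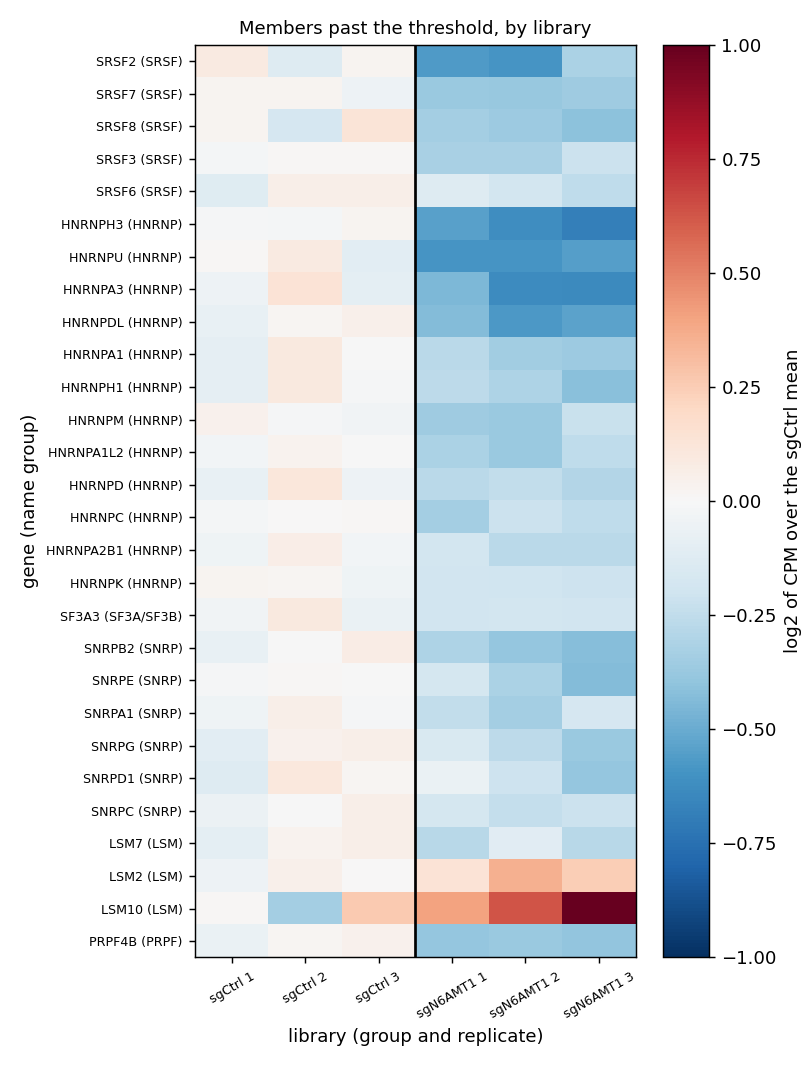
Level of 28 of the 29 members past the threshold in each of the 6 libraries, as log2 of CPM over the mean of sgCtrl (color scale from -1 to 1), ordered by name group and then by change. The sgN6AMT1 columns are blue for 26 members and red for LSM2 and LSM10, and LSM10 varies most between libraries.

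SF3A and SF3B proteins belong to the SF3a and SF3b complexes of the U2 particle. Of the 9 tested genes 1 fell (11.1%, against 13.9% of all genes) and none rose, with a median log2 fold change of -0.034. PHF5A, an SF3b subunit outside the name rule, was named after its values were seen and fell by 0.55 (edgeR adjusted p = 4.1e-05). Their summed level was 3017 ± 60.03 CPM in sgCtrl and 2950 ± 34.0 CPM in sgN6AMT1 (SD, n = 3 per group). SF3A3, a subunit of SF3a, was at 456.6, 502.0 and 448.1 CPM in sgCtrl and at 410.3, 413.0 and 411.5 CPM in sgN6AMT1 (-0.19, SE 0.056, edgeR adjusted p = 0.0054). All depleted libraries were below the controls, of which replicate 2 was the highest. Without sgCtrl replicate 2 or with total counts its call was lost, and its adjusted p over the alternatives lay between 0.00081 and 0.106.

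SF3B1, which holds the branch site adenosine and is often mutated in myeloid disease, was at 467.1, 488.5 and 466.9 CPM in sgCtrl and at 504.1, 528.8 and 517.9 CPM in sgN6AMT1. Every depleted library was above every control library, but the difference missed the threshold (log2 fold change 0.12, 95% interval 0.016 to 0.23, edgeR adjusted p = 0.081). It passed as higher in 4 of 17 alternatives, among them total counts (0.18). SF3B3, the most abundant of the group by count, went from 646.0 ± 11.8 to 606.4 ± 23.7 CPM (SD, n = 3 per group; -0.093, edgeR adjusted p = 0.18). SF3A1 was at 0.019 (95% interval -0.11 to 0.15).

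The SNRP genes encode the Sm ring and the proteins of the U1 and U2 particles. Of 11 tested genes, 6 fell (54.5%, against 13.9% of all genes) and none rose, with a median of -0.21. The summed level was 3662 ± 131.7 CPM in sgCtrl and 3371 ± 72.0 CPM in sgN6AMT1 (SD, n = 3 per group), or -7.96%. Among the proteins particular to U2, SNRPB2 was at 148.2, 155.5 and 164.2 CPM in sgCtrl and at 125.8, 119.2 and 116.2 CPM in sgN6AMT1 (-0.37, SE 0.081, edgeR adjusted p = 0.000163). SNRPA1, its partner in the U2 particle, went from 134.3 ± 4.87 to 112.9 ± 6.58 CPM (SD, n = 3 per group; -0.26, edgeR adjusted p = 0.015). Both were without overlap. Yet SNRPA1 lost its call with DESeq2, with total counts and without sgCtrl replicate 2 or sgN6AMT1 replicate 2 (adjusted p over the alternatives 0.00167 to 0.118). Of the U1 proteins, SNRPC went from 425.4 ± 17.7 to 367.8 ± 7.67 CPM (SD, n = 3 per group; -0.21, edgeR adjusted p = 0.0027), whereas SNRPA was at 211.7 ± 13.3 and 210.7 ± 16.5 CPM (-0.0069, 95% interval -0.14 to 0.13).

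The subunits of the Sm ring are assembled in equal numbers. Some of their genes passed the threshold and others did not, and differences between subunits were not tested. SNRPE was at 489.2, 498.5 and 493.0 CPM in sgCtrl and at 437.9, 397.0 and 364.8 CPM in sgN6AMT1 (-0.30, SE 0.057, edgeR adjusted p = 1.31e-05). SNRPG was at 440.0, 487.8 and 494.0 CPM against 426.9, 396.2 and 365.9 CPM (-0.26, SE 0.058, edgeR adjusted p = 0.000249). In both the groups stood apart, and the depleted libraries were spread. SNRPD1 was at 317.0, 373.0 and 351.5 CPM against 332.2, 301.6 and 264.9 CPM. It was the only member past the threshold whose groups overlapped (-0.21, SE 0.064, edgeR adjusted p = 0.0079). It lost its call with DESeq2, with total counts and without sgCtrl replicate 2 or sgN6AMT1 replicate 3 (adjusted p over the alternatives 5.65e-05 to 0.128).

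The other ring subunits did not pass. SNRPD2, the SNRP gene with the highest count, was at 549.5, 549.2 and 577.3 CPM in sgCtrl and at 572.0, 604.4 and 601.5 CPM in sgN6AMT1 (0.086, 95% interval -0.018 to 0.19). SNRPB was at 401.8, 425.1 and 442.7 CPM against 433.5, 439.8 and 487.5 CPM (0.096, 95% interval -0.016 to 0.21), SNRPF at 0.016 and SNRPD3 at -0.12. The groups of each overlapped, in SNRPD2 only through sgCtrl replicate 3 and sgN6AMT1 replicate 1. With total counts SNRPD2 and SNRPB passed as higher, and with CDS length and G+C trends removed SNRPD3 passed as lower. The ratio of SNRPB to SNRPE counts was 0.857 ± 0.039 in sgCtrl and 1.15 ± 0.18 in sgN6AMT1, and that of SNRPD2 to SNRPG 1.18 ± 0.062 and 1.50 ± 0.15 (SD, n = 3 per group). Per kb of CDS, SNRPE, SNRPG and SNRPD2 were at 1788 ± 16.9, 1646 ± 102.6 and 1578 ± 45.6 CPM in sgCtrl, while SNRPF was at 361.1 ± 43.7 (SD, n = 3). The density of SNRPF depends on its listed transcript, with a CDS of 381 bases. Of the 30-base stretches of that CDS, 10.1% occur in other listed genes, so the contrast with the other subunits is uncertain. SNRPN, the Sm protein of neurons, had 2 to 7 counts per library and was not tested.

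**Figure D3:**
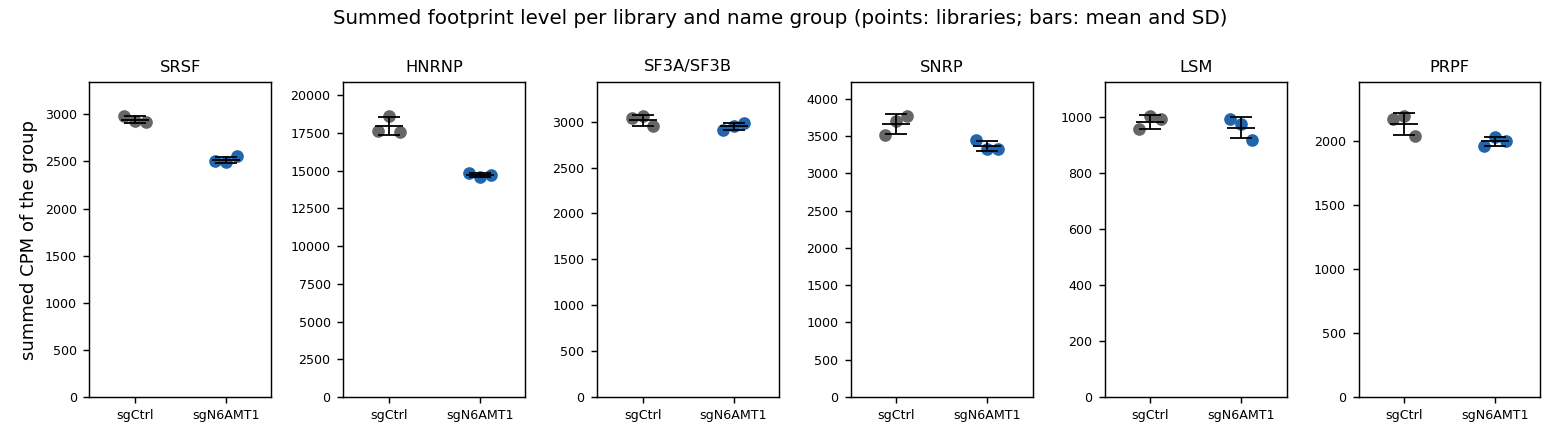
Summed CPM of all listed members of each name group (y axis, from 0) in the 3 sgCtrl and 3 sgN6AMT1 libraries. Points are libraries and bars are the mean and SD. The libraries of sgCtrl and sgN6AMT1 are apart for SRSF, HNRNP, SNRP and PRPF and overlap for SF3A/SF3B and LSM. The gaps are narrow for SNRP and PRPF. The lowest sgCtrl and highest sgN6AMT1 library were at 3516 and 3453 CPM for SNRP and at 2037 and 2027 CPM for PRPF. The sums over all genes, not drawn, were also apart (-3.61%), and the narrow gaps are to be read against that change.

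Both increases among the members were LSM genes. Of 12 tested LSM genes, 1 fell and 2 rose (25.0% past the threshold, against 26.9% of all genes), with a median log2 fold change of -0.13 and a summed level of 984.4 ± 25.3 CPM in sgCtrl and 962.7 ± 37.9 CPM in sgN6AMT1 (SD, n = 3 per group). LSM2, a subunit of both the nuclear ring on U6 and the cytoplasmic ring that promotes mRNA decay, was at 120.6, 128.9 and 124.7 CPM in sgCtrl and at 136.8, 159.9 and 147.7 CPM in sgN6AMT1 (0.24, SE 0.082, edgeR adjusted p = 0.018). LSM7, a subunit of the same rings, was at 161.2, 176.9 and 179.9 CPM against 142.5, 159.9 and 142.2 CPM (-0.22, SE 0.076, edgeR adjusted p = 0.022). Neither gene's groups overlapped, and they moved in opposite directions. The ratio of LSM2 to LSM7 counts was 0.748, 0.729 and 0.693 in sgCtrl and 0.960, 1.00 and 1.04 in sgN6AMT1.

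LSM10, which replaces an Sm protein in the U7 particle that cuts histone mRNAs, had 14, 16 and 17 counts in control libraries and 21, 25 and 29 in depleted ones. That was 6.98 ± 1.43 and 11.9 ± 3.41 CPM (SD, n = 3 per group), without overlap, and the log2 fold change was 0.77 (SE 0.28, edgeR adjusted p = 0.028). These 3 LSM calls depended on the method, since DESeq2 made none of them, and on which libraries were included. LSM2 lost its call without sgCtrl replicate 1 or sgN6AMT1 replicate 2 (adjusted p over the alternatives 0.00302 to 0.181), LSM10 without sgCtrl replicate 2 or sgN6AMT1 replicate 2 or 3 (0.012 to 0.236), and LSM7 without sgCtrl replicate 2 or 3 or sgN6AMT1 replicate 1 or 3 (4.34e-05 to 0.129). LSM11, the partner of LSM10, had 8, 24 and 14 counts against 15, 9 and 11. Its groups overlapped and its log2 fold change was -0.28 (95% interval -0.95 to 0.38).

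LSM3, the most abundant of the group (785.2 ± 32.2 CPM per kb of CDS in sgCtrl, SD, n = 3), was at 240.6, 250.0 and 230.2 CPM in sgCtrl and at 270.4, 251.4 and 236.7 CPM in sgN6AMT1 (0.073, 95% interval -0.056 to 0.20). LSM8, found in the nuclear ring, and LSM1, its counterpart in the cytoplasmic ring, had log2 fold changes of -0.092 and -0.25 (edgeR adjusted p = 0.48 and 0.25). LSM1 had wide error, and without sgN6AMT1 replicate 1 it passed as lower (-0.49). The remaining 5 genes, LSM5, LSM6, LSM12, LSM14A and LSM14B, lay between -0.23 and -0.016, none past the threshold.

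Of 12 tested PRPF genes, 2 fell (16.7%, against 13.9% of all genes) and none rose, with a median log2 fold change of -0.062. The summed level was 2134 ± 85.0 CPM in sgCtrl and 1996 ± 33.9 CPM in sgN6AMT1 (SD, n = 3 per group). PRPF4B, a kinase of tri-snRNP proteins, was at 139.1, 147.6 and 150.4 CPM in sgCtrl and at 111.3, 112.8 and 110.7 CPM in sgN6AMT1 (-0.39, SE 0.083, edgeR adjusted p = 0.000135). The groups were well apart, and the depleted libraries were close together.

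The other PRPF genes did not pass the test. PRPF8, which encloses the active site, was at 596.2, 583.7 and 516.7 CPM in sgCtrl and at 489.6, 556.5 and 557.5 CPM in sgN6AMT1 (-0.084, 95% interval -0.19 to 0.026). PRPF19, the ubiquitin ligase of the Prp19 complex, was at 318.5, 310.6 and 327.8 CPM against 312.1, 314.1 and 315.4 CPM (-0.022, 95% interval -0.14 to 0.097). PRPF31, a tri-snRNP protein, was at 72.8, 71.0 and 74.4 CPM against 58.3, 73.0 and 74.9 CPM (-0.085, 95% interval -0.30 to 0.13). The libraries of all 3 genes overlapped. The remaining tested PRPF genes ranged from -0.25 (PRPF38B) to 0.22 (PRPF4), and PRPF40B had 5 to 11 counts per library and was not tested.

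**Figure D4:**
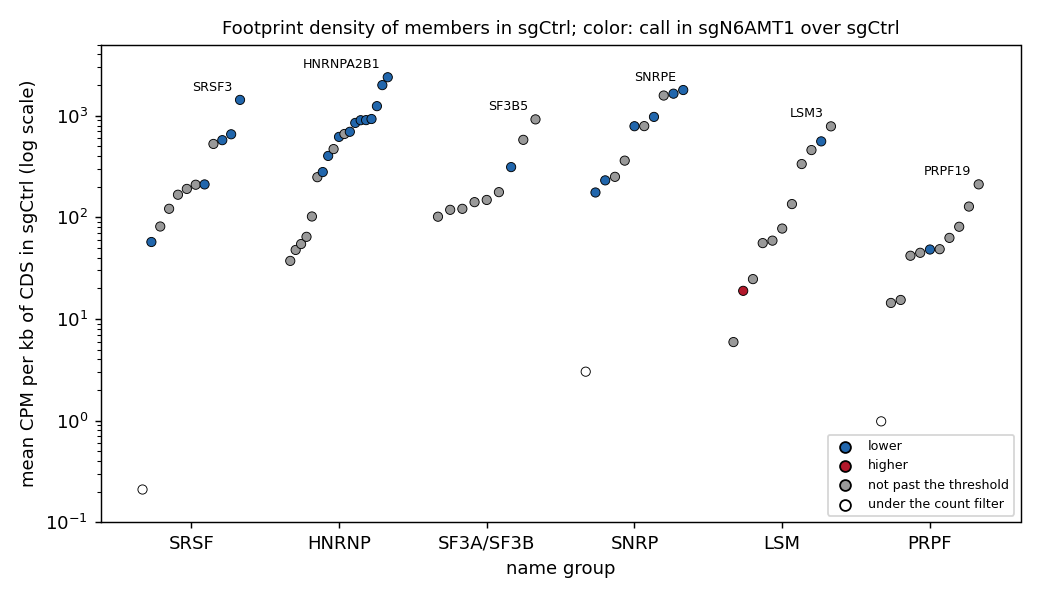
Footprint density of 73 of the 74 members with a matched CDS in sgCtrl (mean CPM per kb of CDS, log axis) by name group, with members ordered by density within a group and colored by their call in sgN6AMT1 over sgCtrl. HNRNPA2B1 is the densest at 2389, and the calls in the HNRNP and SNRP groups reach up to the densest members.

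Abundance bears on which members could pass. Calls depend on depth, and the HNRNP group held the members with the highest counts, with an SE of 0.043 for HNRNPA2B1, whereas LSM and PRPF genes below 50 CPM had an SE of 0.13 to 0.34. A missed threshold in those genes therefore does not show an absence of change. High count alone did not go with a call, since SNRPD2, PRPF8, SF3B1, SF3B3, HNRNPF and HNRNPL were all at 474.2 CPM or more in sgCtrl and did not pass.

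The rule did not use sequence, and 71 tested members had a CDS matched by transcript. Of 29 that end in TAA, 17 fell (58.6%). Of 15 that end in TAG, 4 fell (26.7%), and of 27 that end in TGA, 5 fell (18.5%). Over all tested genes with a matched CDS the shares were 16.3%, 13.4% and 12.5%, in the same order. Of the 5 members with the largest decreases, HNRNPH3 and HNRNPU end in TGA, and HNRNPA3, HNRNPDL and SRSF2 end in TAA. Stop codon and name group were not separated. HNRNPA1, HNRNPA1L2, HNRNPA3, HNRNPC, HNRNPD, HNRNPDL, HNRNPH1 and HNRNPK end in TAA and fell, while HNRNPA0 and HNRNPLL end in TAA and did not pass. The TAA decreases include HNRNPA1L2, whose call is uncertain. The paper reports that its average over all transcripts did not differ at stop codons between the groups. A link between stop codon and change was not tested. The members that fell had a median G+C content at the last codon position of 45.0%, against 54.0% for the other members. This content correlated with the log2 fold change across the 71 members (Spearman's rho 0.34, Pearson's r 0.33) and less across 8607 genes (0.11 and 0.09). These are correlations across genes of the same 6 libraries, which share depth and base composition, and no test was made. Removing smooth trends on CDS length and G+C content left 27 of the 29 members past the threshold, lost LSM2 and HNRNPM, which had no matched CDS, and added 6.

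The rest of the splicing machinery was followed with 164 further genes listed by role. Of the 163 tested, 53 fell (32.5%, against 13.9% of all genes) and 7 rose (4.29%, against 12.9%), with a median log2 fold change of -0.12. The role with the largest share of decreases was that of the U1 and U2 particles and branch site recognition (11 of 21, or 52.4%). There DNAJC8 had the smallest p, at 253.7, 260.6 and 271.6 CPM in sgCtrl against 192.9, 179.3 and 176.4 CPM in sgN6AMT1 (-0.52, edgeR adjusted p = 6.7e-10). U2AF1, the reader of the 3′ splice site, which has a near-identical copy in this genome build, fell by 0.33 (edgeR adjusted p = 8.28e-05). Among genes of the SMN complex, which loads Sm rings, and of other steps of Sm ring assembly, 7 of 17 fell (41.2%). Both SMN1 and SMN2 were among those that fell, and sequence shared between SMN1 and SMN2 was not measured. GEMIN5, which recognizes snRNAs, was at 234.6, 230.0 and 217.4 CPM against 138.9, 156.8 and 156.3 CPM (-0.60, edgeR adjusted p = 4.81e-11).

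Among SR-related proteins and SR kinases 7 of 22 fell (31.8%, against 13.9% of all genes) and SRRM2 rose (0.20). The SRRM2 libraries overlapped, and its call was lost with DESeq2 and without sgCtrl replicate 2 or 3 or sgN6AMT1 replicate 3. TRA2A, a splicing activator, fell by 0.47 (edgeR adjusted p = 5.36e-06). Among other splicing regulators 12 of 30 fell (40.0%). RBMX, an hnRNP by another name (HNRNPG), was at 549.5, 571.3 and 569.9 CPM against 397.1, 392.7 and 408.2 CPM (-0.50, edgeR adjusted p = 8.91e-13). RALY (0.30) and MBNL3, named after their values were seen, rose, and DESeq2 did not call RALY. MBNL3 counts were 1, 0 and 0 in control libraries and 14, 12 and 15 in depleted ones. In the exon junction complex and export factors 7 of 19 fell (36.8%), among them THOC2 (-0.43, edgeR adjusted p = 2.19e-07). SAP18 rose (0.25), a call that DESeq2 did not make.

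In the U5 and tri-snRNP role 5 of 14 fell (35.7%, against 13.9% of all genes). They were SART1, SNRNP40, USP39, PPIH and SART3, with SNRNP40 at -0.35 (edgeR adjusted p = 7.15e-06). The SART1 libraries overlapped, and SART1 and SART3 passed in 14 and 10 of 17 alternatives. Among 32 factors of the Prp19 complex and the catalytic steps, 4 fell (12.5%, against 13.9% of all genes) and 2 rose (6.25%, against 12.9%). BUD31 (-0.53, edgeR adjusted p = 3.36e-07), SNW1, PPIL1 and CWC22 fell and MFAP1 and RBM22 rose. CWC22 passed in 8 of 17 alternatives, and DESeq2 called neither CWC22 nor MFAP1. Of 8 proteins of the minor spliceosome, SNRNP48 rose, from 28.1 ± 0.854 to 39.9 ± 1.82 CPM (SD, n = 3 per group; 0.50, edgeR adjusted p = 0.0039), a call that DESeq2 did not make (adjusted p = 0.092). The genes listed here without being the smallest p of their role were named after their values were seen.

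The number of members past the threshold varied with the method. DESeq2 called 22 members, all lower and all among the 29, where it called 6.91% of 10716 genes lower and 5.49% higher. The members it lost were LSM2, LSM7, LSM10, SNRPA1, SNRPD1, SRSF6 and SRSF8. Scaled by total counts alone, 28 members passed, 21 lower and 7 higher, against 10.6% and 17% of all genes, because that scaling moved all log2 fold changes up. The 5 members it added were PRPF4, SF3B1, SNRPB, SNRPD2 and SRSF9, all higher. Across 17 alternative fits, 20 of the 29 members passed in every fit that could include them, and no gene called both there and in the TMM fit changed sign.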

How the data were processed

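Ribosome footprints of 3 sgCtrl and 3 sgN6AMT1 libraries were analysed. The authors trimmed adapters with cutadapt, mapped reads to GRCh38 with HISAT2, removed rRNA and tRNA reads, mapped the rest to canonical transcripts with bowtie2 and assigned P-sites with riboWaltz. The deposited values were raw counts per transcript, 1 per gene symbol, not normalized and not pooled. Counts by overlap with gene annotation were also made for the study's differential test, and which of them the table holds is not stated. Reads that map to several copies may be split between them. No molecular identifiers are described, so counts are reads and not distinct molecules.

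Counts were tested on the whole table with edgeR 4.0.16 in R 4.3.3, with TMM factors, filterByExpr (minimum 10 counts, 9202 genes kept), the quasi-likelihood F test, 2-sided, and Benjamini-Hochberg adjustment at 0.05. SE was derived from the F statistic, and intervals are 95%. Alternatives used DESeq2 1.42.0, limma-voom (limma 3.58.1), RLE, upper-quartile and no factors, no filter, a mean of at least 50 counts, the replicate number as a block, loess trends on CDS length and G+C content (span 0.5), thinning to 1821356 counts and leaving out each library. Pairs of libraries had a chi-square per degree of freedom of 1.25 to 1.68 within groups and 4.89 to 7.04 across them, so no library was a duplicate.

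Transcripts were matched without version to GENCODE release 44 on GRCh38 (17687 of 19330, and 74 of 84 members). HNRNPL, HNRNPM, HNRNPR, HNRNPCL1 to HNRNPCL4, LSM2, PRPF31 and SNRPB had no match, hence no CDS length. Shared 30-base stretches are exact matches and a lower bound on shared reads. The members and lists were chosen with earlier results of these data known. Genes named were N6AMT1, up to 5 members with the largest change in each direction among those past the threshold, the most abundant, most changed and smallest-p member of each name group, 19 core members, members past the threshold in groups with 5 or fewer, members under the filter, U2AF1, and the smallest-p gene of each role. Other genes were named after their values were seen. The values of 1 member past the threshold are not reported here, though it stays in the counts, medians and sums.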

Additional observations from a re-analysis of the deposited data

How the results depend on the processing

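Depth and 3 libraries per group limit members below about 50 CPM. DESeq2 called 1329 genes in place of 2473. Members past the threshold as higher were 0 with DESeq2, 7 with total counts, 1 after thinning and 0 to 2 without 1 library, against 2. Other spliceosome genes past it as higher were 2 with DESeq2 and 11 with total counts, against 7. The SRSF median of -0.19 was -0.22 with DESeq2, -0.14 with total counts, -0.22 without a count filter, -0.17 at a mean of at least 50 counts, -0.24 with CDS length and G+C trends removed, and -0.22 to -0.17 without 1 library. The HNRNP median of -0.27 was -0.21, -0.24 and -0.24 with total counts, the mean of 50 and the trends removed, and -0.27 to -0.24 without 1 library. The SF3A/SF3B median of -0.034 was 0.020 with total counts, and the LSM median of -0.13 was -0.19 with the trends removed. Without 1 library the medians were -0.24 to -0.14 for SNRP, -0.17 to -0.072 for LSM, -0.083 to -0.037 for PRPF and -0.048 to -0.015 for SF3A/SF3B, and members past the threshold were 22 to 29. The causes were not tested, apart from scaling itself under total counts.

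Replicate numbers are shared between the groups in the labels, but libraries with the same number did not deviate together (correlations of -0.061, 0.020 and 0.016), so the numbers were not taken to pair the samples. With the replicate number as a block, 2390 genes and 28 members passed, and SRSF6 was lost. With the block and the trends removed, the SRSF and HNRNP medians were -0.24 and -0.23 and SNRPD2 was at -0.0021.

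The following log2 fold changes, none past the threshold, changed sign. SRSF1 was at 0.0048 with upper-quartile factors, 0.047 with total counts, 0.018 at a mean of 50 counts, 0.015 after thinning, and -0.042 to 0.022 without 1 library (0.022 without sgCtrl replicate 1 and 0.021 without sgN6AMT1 replicate 1). PRPF19 was at 0.033 with total counts and 0.0039 at a mean of 50 counts. SNRPD2 was at -0.0037 with the trends removed, SF3A1 at -0.037 to 0.086 without 1 library (-0.015 without sgCtrl replicate 3 and -0.037 without sgN6AMT1 replicate 2), and PRPF31 at -0.15 to 0.024 (0.024 without sgN6AMT1 replicate 1). N6AMT1 and LSM10 could not be fitted at a mean of 50 counts, nor members without a matched CDS with the trends removed.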
